A study of Mus musculus with 6 samples.

Results

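The variable segments of the immunoglobulin genes were followed in RNA-seq of normal-looking mouse lung. Members were taken by symbol: every gene of the deposited count table whose symbol begins with Ighv (heavy chain), Igkv (kappa light chain) or Iglv (lambda light chain). This gave 222 of the 25860 genes in the table, with 116 Ighv segments on chromosome 12, 103 Igkv segments on chromosome 6 and 3 Iglv segments on chromosome 16. RefSeq lists 348 segments under these symbols, and 122 of the 126 that the table does not list are annotated there as pseudogenes. The 2 groups were RAG1-/- (libraries numbered 1, 2 and 3) and RAG1-/-Sgo1-/+ (numbered 4, 5 and 6), each number standing for 1 mouse. All were 12 months old, untreated and, by the study's methods, bred on a C57BL/6 background, with both sexes used. Both groups lack RAG1 on both alleles, and the RAG1-/-Sgo1-/+ mice also carry 1 Sgo1 allele in place of a pair, which makes them a model of chromosome instability. The study asked how that instability alters the lung when adaptive immunity is missing.

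An immunoglobulin variable exon does not exist as 1 piece in the germline. The RAG1 and RAG2 proteins form the recombinase that joins a V segment to a J segment (with a D segment between them in the heavy chain) in developing B cells, and a rearranged exon is then spliced to a constant region. Mice without RAG1 are known for lacking mature B and T cells, so neither group has a known source of rearranged immunoglobulin transcripts. The table gives reads per gene and does not show whether a read came from a rearranged or a germline segment.

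Where a V segment ends sets what it can give to complementarity-determining region 3 (CDR3), the part of the antibody that differs most between B cells. The last 120 coding bases are shown for the segments that held most reads in each locus, read from GENCODE transcripts on GRCm38. Capitals run from the codon of the conserved cysteine to the end of the coding part as annotated, which holds the germline-encoded part of CDR3. The kappa segments with the most reads were these.
Igkv12-41: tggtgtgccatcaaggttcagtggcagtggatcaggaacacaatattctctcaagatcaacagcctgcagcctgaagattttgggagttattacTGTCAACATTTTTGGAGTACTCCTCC
Igkv6-23: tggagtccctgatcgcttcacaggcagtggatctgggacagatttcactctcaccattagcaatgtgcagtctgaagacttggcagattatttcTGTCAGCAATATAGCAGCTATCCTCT
Igkv9-124: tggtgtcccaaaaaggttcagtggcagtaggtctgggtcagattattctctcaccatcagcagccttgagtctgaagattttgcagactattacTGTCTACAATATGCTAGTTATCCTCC
The capitals cover 26 bases (8 whole codons) in each of them. The leading heavy chain segments are shown next, and their germline part of CDR3 is shorter.
Ighv10-3: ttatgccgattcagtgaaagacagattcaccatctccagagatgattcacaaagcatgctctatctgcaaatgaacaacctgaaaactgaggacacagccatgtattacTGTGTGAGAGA
Ighv1-54: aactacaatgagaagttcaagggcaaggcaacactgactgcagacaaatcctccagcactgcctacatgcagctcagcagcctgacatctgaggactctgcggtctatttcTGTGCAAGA
The lambda locus of the mouse is small, and all 3 of its segments are shown.
Iglv1: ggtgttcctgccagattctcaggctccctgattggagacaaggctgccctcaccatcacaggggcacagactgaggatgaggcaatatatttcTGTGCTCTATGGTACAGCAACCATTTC
Iglv2: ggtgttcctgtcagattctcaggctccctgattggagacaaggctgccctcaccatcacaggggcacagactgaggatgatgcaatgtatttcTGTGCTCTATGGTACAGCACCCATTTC
Iglv3: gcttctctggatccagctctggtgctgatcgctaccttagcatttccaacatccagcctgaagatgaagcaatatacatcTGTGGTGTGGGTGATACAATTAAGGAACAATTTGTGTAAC
The capitals of Iglv3 run longest (40 bases), and their 13th codon, TAA, is a stop codon, so in this GENCODE model they cannot all belong to CDR3. Iglv1 and Iglv2 differed at 11 of 351 aligned coding bases (96.9% identity), while Iglv1 and Iglv3 shared 55.8%. Igkv3-2, Ighv1-64 and Ighv1-23 are shown because they are, with Iglv3, the segments that had any read outside the library with most segment reads.
Igkv3-2: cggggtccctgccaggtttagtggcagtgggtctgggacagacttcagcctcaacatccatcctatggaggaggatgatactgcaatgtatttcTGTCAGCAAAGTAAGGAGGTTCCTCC
Ighv1-64: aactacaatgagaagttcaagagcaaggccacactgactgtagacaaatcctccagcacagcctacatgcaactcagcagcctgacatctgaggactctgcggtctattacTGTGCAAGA
Ighv1-23: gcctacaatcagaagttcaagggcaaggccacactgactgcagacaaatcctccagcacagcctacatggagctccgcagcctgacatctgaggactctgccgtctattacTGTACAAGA

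The total count on genes was between 3205822 and 9366774 reads per library, so that 3 reads, the smallest amount treated as detected, stood for 0.320 to 0.936 CPM (reads scaled to a common total count on genes). The targeted gene Rag1 had 10 to 24 reads per RAG1-/- library and 8 to 12 per RAG1-/-Sgo1-/+ library, and the deleted part of the gene is not stated, so these reads check nothing. With 0 to 6 reads in every library, Sgo1 was too low for the loss of an allele to be seen. Xist, which is transcribed from the inactive X chromosome, had 7717 reads in RAG1-/- replicate 1 and 4 to 8 in the other 5 libraries, and the Y-linked gene Ddx3y had 2 reads there and 342 to 1228 elsewhere. By these genes RAG1-/- replicate 1 came from a female and the other 5 libraries from males, so sex was not balanced between the groups. Sftpc, which encodes a surfactant protein of alveolar type II cells, had at least 39834 reads in every library.

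Reads on variable segments were found almost entirely in the library labelled RAG1-/- replicate 2. It held 1164 of the 1173 segment reads of the series (99.2%), which was 235 CPM with a 95% exact binomial interval of 222 to 249. The other RAG1-/- libraries, replicates 1 and 3, held 3 and 4 reads. The RAG1-/-Sgo1-/+ libraries held 0, 2 and 0 reads in replicates 4, 5 and 6, and a count of 0 in replicates 4 and 6 allows up to 0.745 and 1.15 CPM at the same confidence level. Immunoglobulin transcripts at this level go against the label of RAG1-/- replicate 2, and group comparisons that rest on it are given also without it where enough reads remain. The mean over the 3 libraries of a group was 78.7 ± 136 CPM in RAG1-/- and 0.123 ± 0.214 CPM in RAG1-/-Sgo1-/+ (mean ± SD, n=3), so the SD of RAG1-/- exceeds its mean. Without the library labelled RAG1-/- replicate 2, RAG1-/- had 7 segment reads (0.438 CPM over both libraries) and RAG1-/-Sgo1-/+ had 2 (0.148 CPM over its 3 libraries). In lung tissue, more cells of a type and more RNA per cell cannot be told apart.

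All 3 loci took part in this pattern. In the library labelled RAG1-/- replicate 2 the kappa segments had 856 reads, or 173 CPM (162 to 185). The heavy chain segments had 226 reads, or 45.7 CPM (39.9 to 52.0), and the lambda segments had 82, or 16.6 CPM (13.2 to 20.6). No other library had more than 2 reads in any locus. Intervals cover counting error only. Few small counts in this table are odd numbers (25.8 to 28.2% of the genes with 1 to 99 reads, depending on the library), and none of the 50 kappa segments with reads had an odd count. If both mates of a read pair were counted, the number of independent fragments is smaller than the number of reads and the intervals are too narrow.

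**Figure D1:**
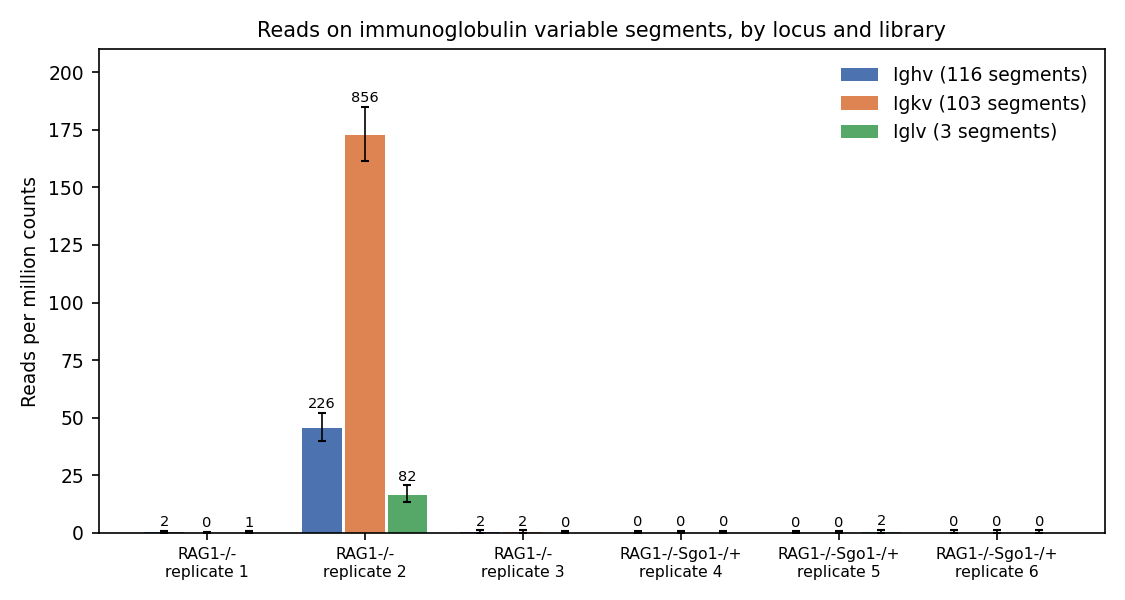
Reads on Ighv, Igkv and Iglv segments in CPM (y axis) in each of the 6 libraries (x axis), with 95% exact binomial intervals as error bars and the number of reads above each bar. The library labelled RAG1-/- replicate 2 has 226, 856 and 82 reads in the 3 loci, and each of the other 5 libraries has between 0 and 2 in a locus.

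At least 1 read in the library labelled RAG1-/- replicate 2 was counted on 94 segments (41 Ighv, 50 Igkv and 3 Iglv), at least 3 reads on 58 (19, 36 and 3) and at least 10 on 32 (7, 24 and 1). With at least 3 reads there and 0 in each of the other 5 libraries there were 56 segments (19 Ighv, 35 Igkv and 2 Iglv), which is 25.2% of all segments. Over all genes of the table the same pattern was met by 85 genes (0.329%), and 65.9% of those were variable segments. The library was singled out for its segment reads, so these shares are a description. Taking each of the other libraries in its place, 11 to 68 genes had at least 3 reads in it alone, and 0 of them were variable segments. With the limit at 10 reads, 36 genes were found in the library labelled RAG1-/- replicate 2 alone, 31 of which were variable segments. Among the others, named because of their values, were Ighg2b (400 reads), Ms4a1 (78), Iglc1 (71) and the calcium channel gene Cacna1i (16). Of all segments, 127 had 0 reads in every library.

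The kappa locus contributed the segments with most reads. Igkv12-41 had 102 reads in the library labelled RAG1-/- replicate 2 and 0 in each of the other 5. Igkv6-23 had 100 reads, Igkv9-124 had 92 and Igkv3-10 had 54 there, each with 0 in the other libraries. Igkv3-2 had 62 reads there and 2 in RAG1-/- replicate 3, with none in the remaining 4. All of these counts are even, as they are throughout the kappa locus. The first 3 held similar numbers of reads, and no segment stood far above the rest: Igkv12-41 held 11.9% of the kappa reads (exact interval 9.82 to 14.3%).

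Heavy chain segments had fewer reads each. Ighv10-3 led with 32 reads in the library labelled RAG1-/- replicate 2, followed there by Ighv1-54 with 26, Ighv1-4 with 18, Ighv1-9 with 17 and Ighv1-7 with 16. All 5 were at 0 in the other 5 libraries. Ighv10-3 held 14.2% of the heavy chain reads (9.89 to 19.4%). The median over the 41 heavy chain segments with reads was 2, against 6 over the 50 kappa segments with reads, and 22 heavy chain and 14 kappa segments had only 1 or 2 reads.

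Lambda reads lay mostly on 1 segment. Iglv1 had 67 reads in the library labelled RAG1-/- replicate 2 and none elsewhere, which is 81.7% of the lambda reads there (71.6 to 89.4%). Iglv2, its close relative, had 9 reads there and 0 elsewhere. Iglv3 had 6 reads there, 1 in RAG1-/- replicate 1 and 2 in RAG1-/-Sgo1-/+ replicate 5, and it was the only variable segment with a read in a RAG1-/-Sgo1-/+ library. Lambda segments made up 8.74% of the light chain variable reads (82 of 938; 7.01 to 10.7%).

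Use of the heavy and kappa loci was spread over many segments. The effective number of segments, which is 1 divided by the sum of the squared shares and equals the number of segments when all have the same share, was 16.0 for Ighv, 15.9 for Igkv and 1.46 for Iglv. The 5 segments with most reads held 48.2% of the Ighv reads and 47.9% of the Igkv reads. In both loci 6 segments were needed to reach 50%. Reads shared between near-identical segments can raise or lower these values, since how multi-mapping reads were handled is not given in the sources used here.

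**Figure D2:**
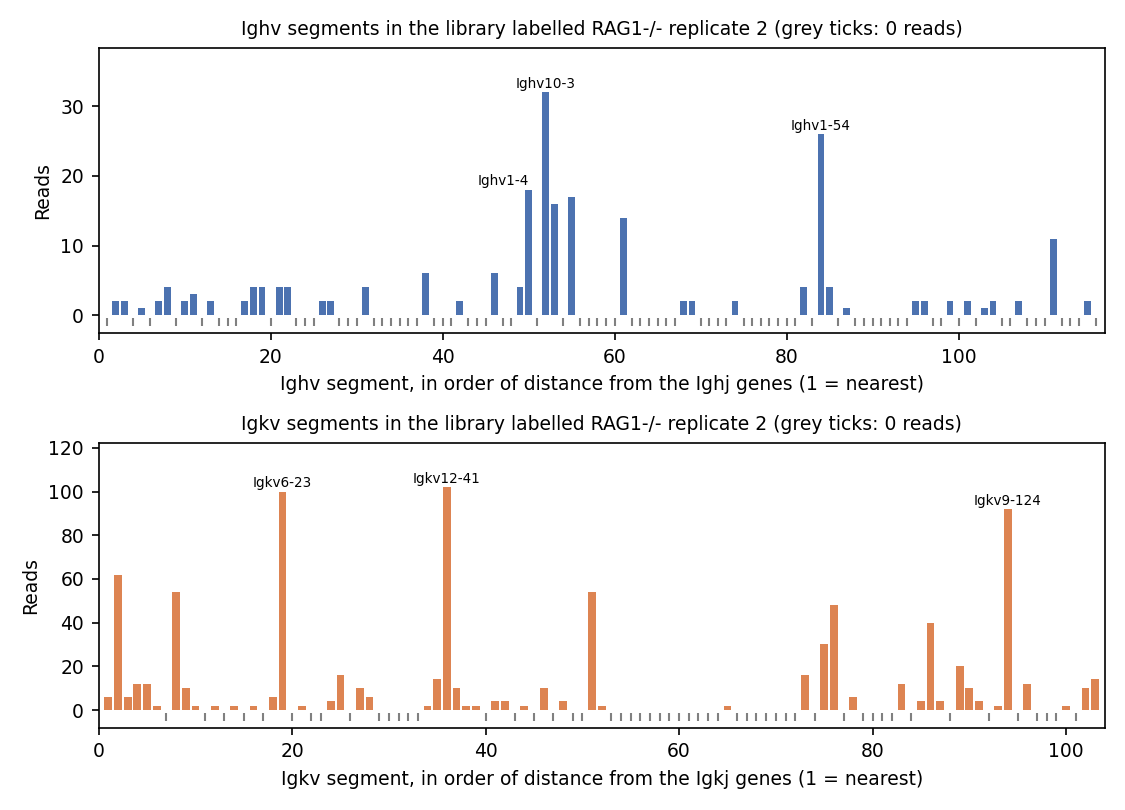
Reads in the library labelled RAG1-/- replicate 2 (y axis) on each Ighv segment (upper panel) and each Igkv segment (lower panel), placed in their order of distance from the J genes (x axis, 1 = nearest), with grey ticks for segments at 0. Bars stand along the whole of both loci, with the highest at Ighv10-3 (32 reads) and Igkv12-41 (102 reads).

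Reads came from segments near to and far from the J genes. When the Ighv segments were divided into 3 parts by their distance from the J genes on GRCm38, the nearest 39 held 50 reads (22.1%, exact interval 16.9 to 28.1%), the middle 39 held 115 (50.9%, 44.2 to 57.6%) and the farthest 38 held 61 (26.99%, 21.3 to 33.3%). Segments with any read numbered 17, 11 and 13 in these parts, so the middle part had the most reads on the fewest segments. In the kappa locus the nearest 35 segments held 332 reads (38.8%, 35.5 to 42.1%), the middle 34 held 198 (23.1%, 20.3 to 26.1%) and the farthest 34 held 326 (38.1%, 34.8 to 41.4%). Segments with any read numbered 21, 12 and 17. The middle part of the kappa locus was thus the lowest in reads and in segments with reads.

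V segments are grouped into families by sequence similarity, and the family is the first number of the symbol. Of the 16 Ighv families in the table, 12 had reads in the library labelled RAG1-/- replicate 2 and 9 had a segment with at least 3. Ighv1, the largest family, had 129 reads on 18 of its 57 segments. Its share of the reads, 57.1% (50.3 to 63.6%), was above its 49.1% share of the segments, which lies just below the interval. Ighv10 had 36 reads on both of its segments, which is 15.9% of the reads (11.4 to 21.4%) from 1.72% of the segments. Ighv2 and Ighv5 had 14 reads each, and Ighv7, Ighv13, Ighv15 and Ighv16 had 0.

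Of the 20 Igkv families, 14 had reads there, and each of the 14 had a segment with at least 3. Igkv3 came first with 164 reads on 8 of its 9 segments, a read share of 19.2% (16.6 to 22.0%) against a segment share of 8.74%. Igkv6 had 112 reads, Igkv12 had 106 and Igkv9 had 104, and in each of these 3 families a single segment (Igkv6-23, Igkv12-41 and Igkv9-124) held most of them. Igkv4, the family with most segments, had 94 reads on 8 of 28, a read share of 10.98% (8.97 to 13.3%) against a segment share of 27.2%. Igkv7, Igkv11, Igkv13, Igkv16, Igkv18 and Igkv20 had 0 reads.

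**Figure D3:**
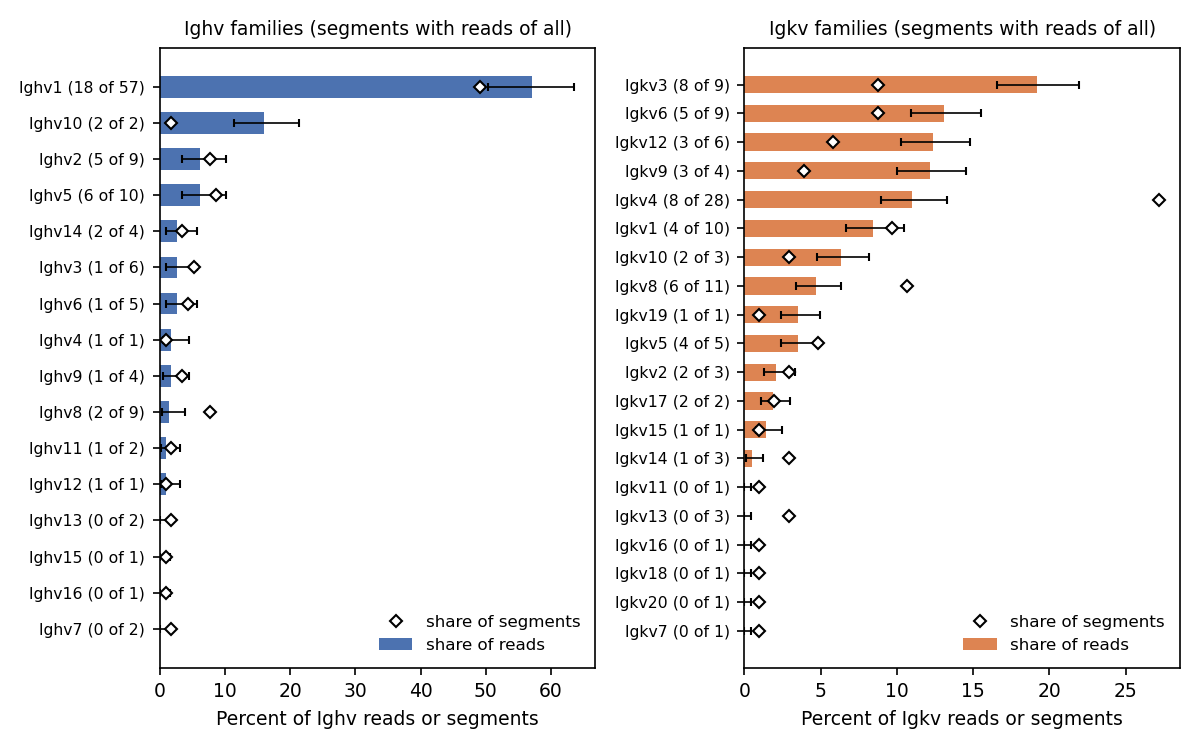
Share of the Ighv reads (left) and Igkv reads (right) of the library labelled RAG1-/- replicate 2 held by each segment family (bars, x axis in percent, with 95% exact binomial intervals) and the family's share of the segments in the table (open diamonds); beside each name stands the number of its segments with reads. Ighv10 holds 15.9% of the reads with 1.72% of the segments, and Igkv4 holds 10.98% with 27.2%.

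Outside the library labelled RAG1-/- replicate 2, reads fell on 4 segments and numbered 9. Igkv3-2 had 2 reads in RAG1-/- replicate 3, Ighv1-23 had 2 in the same library, Ighv1-64 had 2 in RAG1-/- replicate 1, and Iglv3 had the 3 reads given before. None of these counts reached 3 in a library. Ighv1-23 had 0 reads in the library labelled RAG1-/- replicate 2, and Ighv1-64 had 2 there. The remaining 218 segments had 0 reads in all 5 of these libraries.

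The sequences of the segments with reads showed what intact V segments have. GENCODE held 221 of the segments, 209 as functional V genes and 12 as V pseudogenes. All 94 segments with reads in the library labelled RAG1-/- replicate 2 were among the former, and the 12 pseudogenes had 0 reads there. A tyrosine codon, any codon and a cysteine codon in a row, the usual end of a V segment, were found near the end of 215 of the 221 segments, and of all 58 with at least 3 reads. Coding lengths ran from 264 to 402 bases, with a median of 351.

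Many segments have a close copy, and reads from them are uncertain for that reason. The median identity of a segment to its nearest relative was 95.2%, and 111 segments had a relative of at least 95%. This median was 95.3% for the 58 segments with at least 3 reads and 94.3% for the 127 sequences of segments with 0. Counts of close relatives were similar in some pairs and unequal in others, and the pairs given here are examples. Ighv1-4 had 18 reads and Ighv1-7, its nearest relative (96.9% identity), had 16. Igkv1-110 had 40 and Igkv1-117 (97.2%) had 20. Igkv12-41 had 102 reads and Igkv12-44, with 95.7% identity, had 2. Ighv10-3 had 32 and Ighv10-1 (96.7%) had 4, and Igkv3-10 had 54 and Igkv3-5 (98.3%) had 12. Igkv4-59 had 54 reads and Igkv4-70 (97.4%) had 0.

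The groups were compared by the quasi-likelihood test of edgeR over the 17231 genes with at least 10 reads in all, and 32 variable segments (24 Igkv, 7 Ighv and 1 Iglv) passed this filter. All 32 reached the filter only through the library labelled RAG1-/- replicate 2, and all but Igkv3-2 had reads in no other library. With thresholds of 0.05 on the *P* adjusted by Benjamini-Hochberg and 2-fold on the difference, 0 segments were called, as were 0 genes (0% of those tested). No adjusted *P* was below 0.832. Since 31 of the 32 had reads in 1 RAG1-/- library alone, they could only come out lower in RAG1-/-Sgo1-/+ and with overlapping groups. Igkv3-2 entered through the same library, with 2 reads elsewhere, so nothing is read from the direction or number of the 32. Before adjustment, 7 of them had a *P* under 0.05, where 976 of all tested genes did (5.66%), 434 lower (2.52%) and 542 higher (3.15%). These 7 were Igkv3-2, Igkv12-41, Igkv6-23, Igkv9-124, Iglv1, Igkv4-59 and Igkv3-10. The groups stood apart in 0 of the 32, and in 11.8% of the tested genes.

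Igkv12-41 had a mean of 6.87 ± 11.9 CPM in RAG1-/- and 0 in RAG1-/-Sgo1-/+ (n=3 each; edgeR log2 fold change -8.25, SE 3.38, adjusted *P*=0.832). A two-sided exact permutation test of its CPM gave *P*=1.0, where the smallest value that 3 against 3 libraries allows is 0.1. Measured against 3 reads in each RAG1-/-Sgo1-/+ library, its RAG1-/- mean was at least 9.82-fold higher, and that mean rests on 1 library. The same bound was 6.45-fold for Iglv1 and 3.08-fold for Ighv10-3. Igkv3-2, the segment with the lowest unadjusted *P*, had a log2 fold change of -7.56 (SE 2.95, edgeR adjusted *P*=0.832; exact permutation *P*=0.4). Fitted values against a group at 0 depend on the prior count. Without the library labelled RAG1-/- replicate 2, 0 segments had enough reads to be tested.

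Constant region genes, to which rearranged variable exons are spliced, followed the segments. The kappa constant gene Igkc reached 1853 reads in the library labelled RAG1-/- replicate 2, against 8 in replicate 1 of the same group and 0 in the remaining 4. In the lambda locus Iglc1, Iglc2 and Iglc3 had 71, 92 and 77 reads there, and between 0 and 2 elsewhere. Lambda reads were 11.5% of the light chain constant reads (240 of 2093; 10.1 to 12.9%), against the 8.74% of the variable reads. These intervals overlap.

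Heavy chain constant genes of several antibody classes were present in the library labelled RAG1-/- replicate 2. Ighm (IgM) had 1314 reads, or 43.2% of its 3039 heavy chain constant reads, and Igha (IgA) had 657 (21.6%). The IgG genes Ighg2b, Ighg2c, Ighg1 and Ighg3 had 400, 306, 213 and 125 reads, and Ighd (IgD) had 24. Ighe (IgE) had 0 reads in every library. In reads not scaled to transcript length, class-switched genes thus held more than the share of Ighm and Ighd together. Transcript lengths ran from 1214 bases (Ighg2c) to 2566 (Ighg2b), with 1698 for Ighm. In CPM per kilobase of transcript, Ighm stood at 156 and Ighd at 2.68. Igha stood at 52.3, Ighg2c at 50.9, Ighg2b at 31.5, Ighg1 at 17.3 and Ighg3 at 10.5. The excess of class-switched genes in reads is therefore not read as an excess of transcripts.

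Ighm differed from the segments in that all libraries held it, with 66 and 71 reads in RAG1-/- replicates 1 and 3 and 58, 76 and 40 in RAG1-/-Sgo1-/+. The fitted difference for Ighm was -2.86 on the log2 scale (SE 1.15, edgeR adjusted *P*=0.832) and turned to 0.53 without the library labelled RAG1-/- replicate 2. Igha had 3 and 0 reads in RAG1-/- replicates 1 and 3 and 4, 9 and 4 in RAG1-/-Sgo1-/+, and its value turned from -5.08 (SE 1.99, edgeR adjusted *P*=0.832) to 2.66 (edgeR adjusted *P*=0.987). The other 10 constant genes had 8 reads or fewer in each of these 5 libraries. All 11 constant genes tested were lower in RAG1-/-Sgo1-/+ at an unadjusted *P* under 0.05, with a median log2 fold change of -6.87, and 0 passed the adjusted threshold. Over all tested genes 2.52% were lower at that level. Apart from Ighm and Igha, these constant genes passed the filter on counts only through the library labelled RAG1-/- replicate 2. That library set their direction, so nothing is read from their direction or number. Without the library labelled RAG1-/- replicate 2, only Ighm and Igha had enough reads to be tested, with 0 lower, 1 higher (Igha) and a median of 1.60, and over all 16968 genes then tested 1.69% were lower and 1.81% higher.

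Per length of transcript, variable and constant regions stood closer than their reads. In RPKM (CPM per kilobase of transcript), summed over its members, the kappa locus had a level of 473 on its variable segments and 704 on its constant gene. The levels were 123 and 322 for the heavy chain and 42.8 and 96.7 for lambda. The constant level was 1.49 times the variable level for kappa, 2.60 times for the heavy chain and 2.26 times for lambda. On the same scale Igkv12-41 stood at 59.4, Igkv6-23 at 54.8, Iglv1 at 34.6 and Ighv10-3 at 17.1.

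The short D and J segments gave little: the 12 J segments had 2 reads in the library labelled RAG1-/- replicate 2, and the 10 D segments had 0 reads in every library.

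Some genes of antibody-secreting cells, not most, were highest in the same library. Jchain, whose protein joins IgM and IgA into polymers, had 942 reads in the library labelled RAG1-/- replicate 2, 4 and 2 in the other RAG1-/- libraries and 0 in each RAG1-/-Sgo1-/+ library. Its groups stood apart (log2 fold change -11.5, SE 4.09, edgeR adjusted *P*=0.832; exact permutation *P*=0.1), as in 11.8% of the tested genes. This separation depends on the 4 and 2 reads of RAG1-/- replicates 1 and 3, and 2 reads are below the detection limit of 3. Of the other antibody-secreting cell genes, Pou2af1, a coactivator of immunoglobulin transcription, had 46 reads in the library labelled RAG1-/- replicate 2 and 0 to 4 elsewhere. Mzb1, a chaperone of the endoplasmic reticulum, had 50 there and 4 to 23 elsewhere. The summed list of 16 was 1092 CPM there and 859.7 to 971 CPM in the other 5, with 5 members highest there. Without that library Jchain had too few reads to be tested. Most of that sum came from Xbp1 and Sdc1, which had at least 807 reads in every library. At an unadjusted *P* under 0.05, 2 members of 16 were lower (Jchain and Prdm1) and 1 was higher (Slamf7), beside 2.52% and 3.15% of all tested genes. Without the library labelled RAG1-/- replicate 2, 1 of 14 was lower and 1 higher, with a median log2 fold change of 0.03. Of all genes then tested, 1.69% were lower and 1.81% higher.

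B cell genes were higher in the library labelled RAG1-/- replicate 2 than in any other, with a summed 239 CPM against 64.3 to 121 CPM and 17 of the 22 members at their highest there. Ms4a1 (CD20), a surface protein of B cells, had 78 reads there, and Pax5, the transcription factor that keeps B cell identity, had 9. Both were at 0 in the other 5 libraries. Cd79a, a signalling chain of the B cell receptor, had 69 reads there and 0 to 2 elsewhere, whereas its partner Cd79b had 171 there and 24 to 74 elsewhere. At an unadjusted *P* under 0.05, 4 members were lower in RAG1-/-Sgo1-/+, among them Cr2, Blk and Ms4a1, and 0 were higher, of 20 tested and beside 2.52% and 3.15% of all tested genes, with a median log2 fold change of -1.37. Without that library 12 were tested and the median was 0.80, with 0 lower and 1 higher, beside 1.69% and 1.81% of all genes then tested. The part of B cells in the segment reads was not tested.

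For genes of early B cell development the sum did not stand apart. The list of 8 (surrogate light chain, recombinase and related genes) summed to 23.6 CPM in the library labelled RAG1-/- replicate 2 and to 8.11 to 33.7 CPM in the others, and most of its reads there were on Il7r, an interleukin receptor chain that other lymphoid cells also express (84 reads and 36 to 94 elsewhere). Without Il7r, a split made after its values were seen, the sum was 6.67 CPM there and 3.33 to 4.37 CPM elsewhere. Bcl11a, a transcription factor of B cell and other lineages, had 17 reads there and 0 to 4 elsewhere. Igll1 had 2 reads there, Vpreb1 had 4, and Rag2 and Vpreb2 had 0 reads in every library.

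T cell receptor variable segments, which the same recombinase joins in T cells, had far fewer reads. Of 152 in the table, 136 had 0 reads in every library. The library labelled RAG1-/- replicate 2 had 20 reads on them (4.04 CPM) and the other 5 had 1 to 6 (0.185 to 1.87 CPM), and 1 segment had at least 3 reads in the former and 0 elsewhere, against 56 immunoglobulin segments. The summed T cell genes stood at 96.8 CPM there and at 32.7 to 62.4 CPM elsewhere, with 13 of 18 highest there. Among these 13, Trac had 22 reads there and 0 to 2 elsewhere. Cd8a, also among them, had 34 there, 12 in RAG1-/-Sgo1-/+ replicate 6 and 0 in the rest. Cd3e, a chain of the T cell receptor complex, was not among the 13. It had 12 reads in the library labelled RAG1-/- replicate 2, 2 and 0 in the other RAG1-/- libraries and 0, 9 and 11 in RAG1-/-Sgo1-/+. None of the 16 T cell genes tested reached an unadjusted *P* under 0.05. Without the library labelled RAG1-/- replicate 2, 11 were tested and 2 were higher in RAG1-/-Sgo1-/+ at that level, with a median log2 fold change of 0.41. Of all genes then tested, 1.81% were higher.

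Other cell types of the lung did not set the library labelled RAG1-/- replicate 2 apart in the same way. Natural killer cell genes summed to 27.5 CPM there, within the 17.8 to 64.4 CPM of the other 5, and 1 of 8 members (Gzma) was lower in RAG1-/-Sgo1-/+ at an unadjusted *P* under 0.05, with a median log2 fold change of -0.76. Without that library 2 of 8 were lower, with a median of -1.10. Over all tested genes 2.52% were lower and 3.15% higher at that level, and without that library 1.69% and 1.81%. Macrophage genes summed to 540.5 CPM there and 462 to 6521 CPM elsewhere, with Cd68 and Chil3 higher at that level. Chil3 had 19501 reads in RAG1-/-Sgo1-/+ replicate 6 and 1234 to 6096 in the other libraries. Genes of lymphoid follicles and homing summed to 288 CPM against 259.5 to 596, with Cr2, which is also on the B cell list, lower at that level. The sum of the lung epithelial genes was slightly above the others (99506 CPM against 77694 to 99079), with 0 of 8 members highest there and Foxj1 higher in RAG1-/-Sgo1-/+ at an unadjusted *P* under 0.05. Endothelial and fibroblast genes (1442 CPM against 1052 to 1444) and cell cycle genes (44.7 against 31.1 to 67.1) lay within the range of the others, and 0 of their members reached that level. Without that library, 0 members of the macrophage, follicle, epithelial, endothelial and fibroblast or cell cycle lists reached it.

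**Figure D4:**
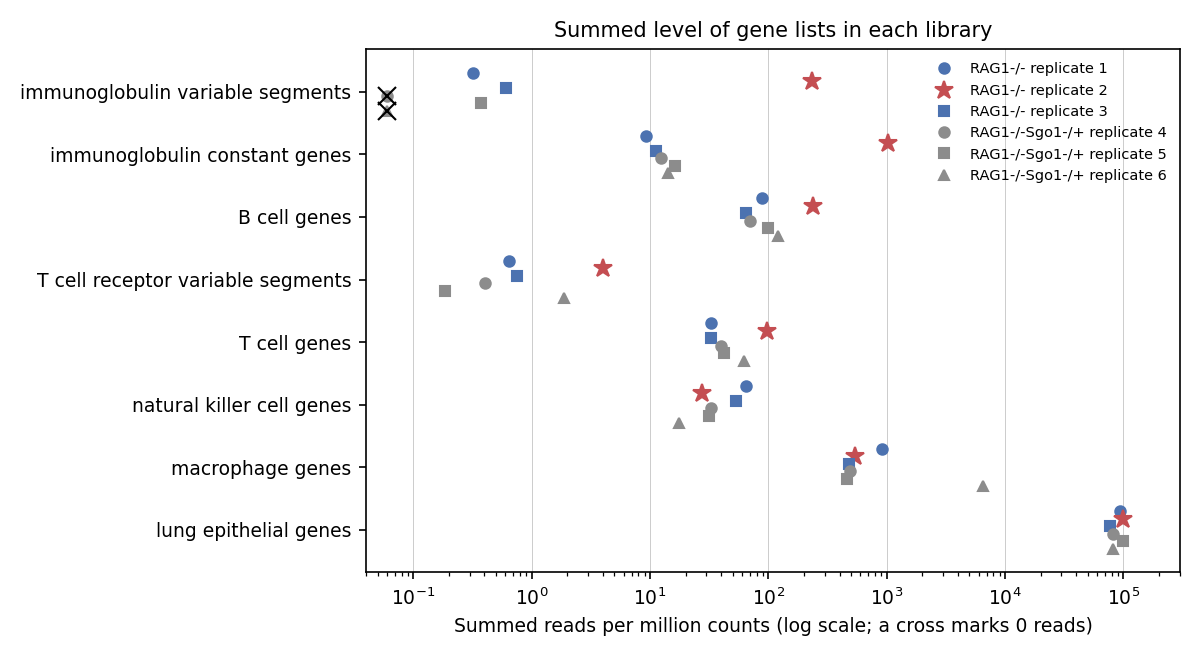
Summed CPM (x axis, log scale) of 8 gene groups (y axis) in each library, with the library labelled RAG1-/- replicate 2 as a star and a cross for a library with 0 reads. The star stands at 235 for the variable segments against at most 0.605 elsewhere, at 1037 for constant genes against at most 16.3, and inside the range of the others for natural killer cell and macrophage genes. It is also above the others for B cell genes (239 against at most 121), T cell genes (96.8 against 62.4) and T cell receptor variable segments (4.04 against 1.87). For lung epithelial genes it is slightly above them (99506 against 99079).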

How the data were processed

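Lung RNA was sequenced by the authors on an Illumina MiSeq as paired reads and processed with GeneSifter. The labels name BWA and edgeR without versions, and the file header names mouse build 37.2. The deposited values are read counts per gene, whole numbers without normalization. Each library has a pair of columns holding the same numbers, of which only the first entered. A deposited list of the authors' own comparison (group means, fold changes and p-values) was not used. Of 25860 genes, 24048 (93.0%) received a symbol through their Entrez Gene ID. Sequences and locus order came from GENCODE and RefSeq on GRCm38, so no coordinates are given. RPKM used the longest GENCODE transcript.

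Genes with at least 10 summed counts were compared with edgeR 4.0.16 (R 4.3.3, quasi-likelihood test, total count as library size, prior count 0.125), with thresholds of 0.05 on the Benjamini-Hochberg adjusted *P* and 2-fold. The SE was taken as the log2 fold change over the root of F. The workflow was tested on simulated data. Named segments were the 5 with most reads in each locus, any with at least 3 reads in another library (0 were found), and the lowest unadjusted *P* in each direction. Outside the segments they were the constant genes, up to 4 members of each list with the lowest unadjusted *P* under 0.05, and a fixed set of marker, sex-linked and targeted genes. Genes outside this rule were picked with their values known, and 1 gene within it is not reported here. The segments and lists were chosen with earlier results of these data known.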

Additional observations from a re-analysis of the deposited data

How the results depend on the processing

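Under the edgeR test 0 genes were called, and 976 had an unadjusted *P* under 0.05. DESeq2 1.42.0 called 1 gene (Awat1, named for this), and leaving out a replicate gave 0 to 1 (H2-K1, named for this, at a log2 fold change of -3.11 without RAG1-/-Sgo1-/+ replicate 5). Variable segments were called in none of the settings in which any was tested; with filterByExpr and without the library labelled RAG1-/- replicate 2, 0 segments were tested. The 7 segments at an unadjusted *P* under 0.05 became 13 without the filter on low counts and 0 with halved counts, DESeq2 or limma-voom (limma 3.58.1). Leaving out a replicate gave 0 to 25 (25 without RAG1-/- replicate 1, 13 without RAG1-/- replicate 3, 0 without each RAG1-/-Sgo1-/+ replicate). TMM factors and DESeq2 size factors gave 8. Igha turned to 0.49 with limma-voom, and to 2.66 without the library labelled RAG1-/- replicate 2 (range over the libraries left out -5.68 to 2.66). Ighm turned to 0.53 without it (range -3.42 to 0.53). Leaving out a library removes its reads by construction, and the cause of the limma-voom value was not tested.

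The 58 segments detected at 3 reads were 94 at 1 read, 32 at 10 reads and 28 when segments with the same counts in every library were counted once. The 56 found in that library alone were 91, 31 and 26 in the same settings. Counting equal segments once lowered the effective number to 7.82 for Ighv and 9.01 for Igkv; by its construction this merges unrelated segments that share a small count. Thinning every library to 3205822 reads left 772 segment reads on 50 detected segments. Merging segments of at least 95% identity, an alternative chosen after seeing the data, left 49. The effective number uses no detection limit, so the alternatives in that limit gave no value for it. No paired analysis was possible because the replicate numbers of the groups (1 to 3 and 4 to 6) share none. Depth limits the 5 other libraries: 3 reads stand for 0.320 to 0.936 CPM, and groups of 3 allow no exact permutation *P* below 0.1.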
